A study of Sus scrofa with 22 samples.

Results

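The genes of the secretory pathway and of the endoplasmic reticulum (ER) stress response were examined in 22 RNA-seq libraries from porcine endometrium. The list was chosen by function and names 60 genes for ER translocation, folding, quality control and the unfolded protein response. Of these, 59 were listed in at least 1 of the 3 deposited count tables and 58 in all 3, out of 12401 genes listed in the series. SDF2L1 was listed in GE and S only, and DERL3 in no table. The libraries were prepared from 3 areas, the luminal epithelium (LE), the glands (glandular epithelium, GE) and the stroma (S), by laser capture microdissection (LCM), a method in which stained cells are excised from frozen sections under the microscope. On Day 12, 4 pregnant gilts (01, 03, 05 and 14) and 4 cyclic gilts, called control (02, 04, 06 and 13), were sampled, with 1 LE and 1 GE library from each gilt and 1 S library from 3 gilts of each state (control 02, 04 and 13, pregnant 01, 05 and 14). All gilts were prepuberal crosses of German Landrace and Piétrain whose cycles had been synchronized with gonadotropins, and all were inseminated, the control gilts with seminal fluid from which sperm had been removed. Pregnancy was established by filamentous conceptuses in the uterine flush.

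Proteins for secretion enter the ER while they are being translated. The signal recognition particle (SRP) brings the ribosome to the membrane, the SEC61 channel takes up the chain, and signal peptidase removes the signal peptide. In the ER lumen, chaperones and disulfide isomerases fold the chain, cargo receptors and coat proteins pass it on to the Golgi, and chains that fail to fold are returned to the cytosol for degradation. An overload of unfolded protein is sensed by ERN1, EIF2AK3 and ATF6, whose signals lead to the transcription factors XBP1, ATF4 and cleaved ATF6. Uterine glands are known for the secretion of nutrients and growth factors toward the conceptus, and on Day 12 the pig conceptus elongates and secretes estrogens.

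Library totals on listed genes lay between 893912 counts (pregnant LE of gilt 01) and 4020796 counts, and 3 counts, taken as the floor, corresponded to 0.703 to 3.61 CPM, the unit of level used here, in which counts are scaled to the normalized library total. The lowest count of a member in any library in which it was listed was 4. Marker genes did not separate the 3 cell types cleanly. The summed CPM of 8 epithelial markers, such as EPCAM and KRT18, was 2972 to 4369 in LE, 799.6 to 3287 in GE and 1167 to 4167 in S, and that of 6 fibroblast markers, such as COL1A1 and DCN, was 7210 to 19180 in LE, 4262 to 44170 in GE and 4491 to 58100 in S. The highest fibroblast sums belonged to pregnant S of gilt 01, control GE of gilt 02 (44170) and pregnant GE of gilt 01 (28740). In control gilts the sums of S ran against its label. The fibroblast sum was 4491 to 8421 CPM in control S, below all control LE libraries (11180 to 16690 CPM). The epithelial sum was 2732 to 3303 CPM in control S, above all control GE libraries (799.6 to 2381 CPM). In pregnant gilts the S ranges of both sums overlapped those of LE and GE. FOXA2, a marker of glands, was listed in GE and S and not in LE. Of 7 plasma cell markers, JCHAIN was listed in GE and S, IRF4 in GE and SDC1 in all 3 tables, and the others, MZB1, TNFRSF17 and POU2AF1 among them, in none. The summed CPM of the listed plasma cell markers was at most 88.14 in LE, 133.3 in GE and 72.96 in S. LE, GE and S are therefore used below as the labels of the captured areas. In such samples, fewer cells of a type cannot be told apart from less RNA per cell.

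Promoters of members carried the ER stress response element, a bipartite sequence known to be bound by ATF6 and XBP1 together with NF-Y. The element was searched on both strands as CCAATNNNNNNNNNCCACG, from 250 bases before to 50 bases after the annotated gene start in Sscrofa11.1 (RefSeq). It was found in 8 of the 60 members (13.3%) and in 0 of 121 other genes of the pathway. Of 12398 listed genes with such a window, 13 had it (0.105%). These include the 7 listed members with the element and not DERL3, which was not listed. The sites are shown because a larger share of the members than of all genes carried them. PDIA3 and DNAJC3, described below, had none. The sites are printed with the CCAAT and CCACG parts in capitals and 9 bases between them.
HSPA5: CCAATcagcggcctCCACG
HSP90B1: CCAATtggaaggagCCACG
HSP90B1: CCAATcgggctgcaCCACG
CALR: CCAATgaaggtcgaCCACG
CANX: CCAATccccacactCCACG
PDIA6: CCAATaagccgcggCCACG
CRELD2: CCAATccgagctcgCCACG
XBP1: CCAATcgtggagggCCACG
DERL3: CCAATagtgaggacCCACG
DERL3: CCAATaagcaggccCCACG
In the order given, the sites lie at chr1:265934953-265934971, chr5:80531133-80531151, chr5:80531029-80531047, chr2:66102290-66102308, chr2:78915956-78915974, chr3:125751917-125751935, chr5:716803-716821, chr14:46016590-46016608, chr14:49870892-49870910 and chr14:49871009-49871027. They read 5′ to 3′ along the strand of the gene in HSPA5, the HSP90B1 site given before the other, CANX, PDIA6 and XBP1, and along the opposite strand in the others. The distance from the gene start to the first base of the site was −12 in HSPA5, −82 in XBP1 and −162 in PDIA6. A shorter motif, TGACGTGG, the core of the unfolded protein response element bound by XBP1, was present in 6.67% of the member promoters, 6.61% of those of the other pathway genes and 0.807% of all. The 5 letters CCACG alone, which are also part of the long element, occurred in 66.7% of the member promoters and 44.9% of all, and CCAAT in 61.7% and 35.8%.

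The secretory genes as a group were higher in pregnant than in control gilts in each cell type, and between GE and the other cell types they differed little. The mean log2(CPM + 0.5) of the 58 members listed in all tables was 6.52 ± 0.07 (SD, n = 4) in control LE and 7.04 ± 0.15 (n = 4) in pregnant LE. It was 6.60 ± 0.11 (n = 4) in control GE and 7.09 ± 0.33 (n = 4) in pregnant GE, and 6.54 ± 0.09 (n = 3) in control S and 7.08 ± 0.33 (n = 3) in pregnant S. No library of a control gilt reached the lowest pregnant library of the same cell type, although in GE the gap was small (6.730 in control gilt 13 and 6.733 in pregnant gilt 03). Together the 58 members made up 8235 to 10410 CPM in the control libraries and 10180 to 20100 CPM in the pregnant libraries. Pregnant gilt 05 stood apart in GE and S, with the highest value of its group for 44 of 58 members in GE and 42 of 58 in S. In LE it did not, with 14 of 58, compared with 21 for gilt 01. The share of all genes that were highest in gilt 05 is not given here. The epithelial marker sum of this gilt was the highest of all GE libraries (3287 CPM) and of all S libraries (4167 CPM), with 4094 CPM in LE, and its fibroblast sum was 10980 CPM in GE, 7991 CPM in S and 11560 CPM in LE. Marker sums also differed between control and pregnant gilts. The median epithelial sum was 3081 CPM in control and 4140 CPM in pregnant LE, 1923 and 2713 CPM in GE, and 3253 and 2274 CPM in S. Single epithelial markers went in both directions in LE, where the median of CLDN4 was 277.5 CPM in control and 999.6 CPM in pregnant gilts and that of KRT18 192.4 and 63.43 CPM. KRT7, KRT8 and KRT19 also had lower medians in pregnant LE, and CDH1 a higher one. The median sum of the listed smooth muscle markers was 208.0 CPM in control and 829.7 CPM in pregnant GE. Control GE ranged from 13.14 to 7010 CPM and pregnant GE from 392.6 to 1894 CPM. In LE the medians were 236.8 CPM in control and 189.0 CPM in pregnant gilts, and in S 212.8 and 169.4 CPM. The median fibroblast sum was 13610 CPM in control and 11290 CPM in pregnant LE, 14230 and 12500 CPM in GE, and 8275 and 11910 CPM in S. The part of cell composition in these values was not tested.

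**Figure D1:**
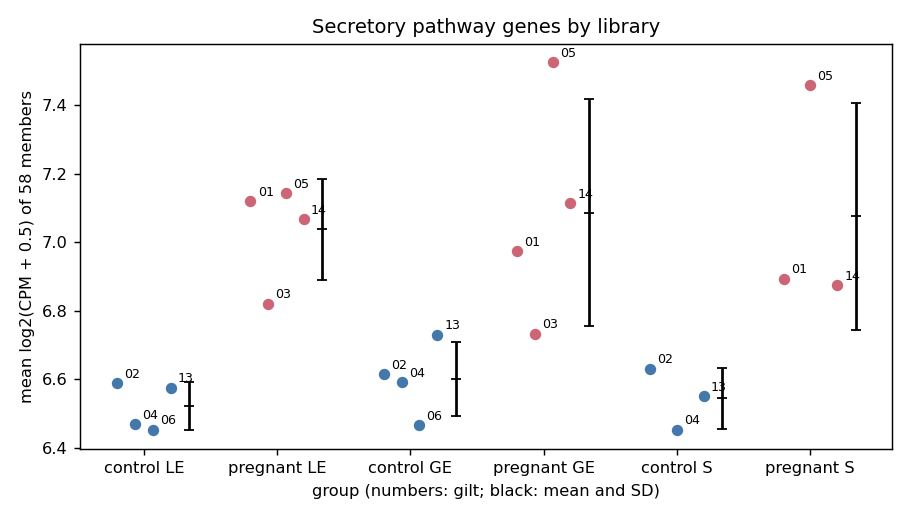
Mean log2(CPM + 0.5) of the 58 members in each library (y axis) by group (x axis), with the gilt number beside each point and the group mean and SD in black. Control libraries lie between 6.45 and 6.73, pregnant libraries between 6.73 and 7.53, and gilt 05 is highest in pregnant GE and S.

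Pregnant and control gilts were compared within each cell type. A positive log2 fold change was found for 55 of 58 members in LE, where 50.5% of all genes had one, for 55 of 59 in GE (all genes, 47.7%) and for 56 of 59 in S (all genes, 56.5%). The median log2 fold change was 0.47 (LE), 0.49 (GE) and 0.67 (S), and over all genes it was 0.01, −0.02 and 0.08. Of the 58 members, 52 were higher in all 3 cell types, compared with 24.7% of the 10643 genes listed in all tables. The libraries of the 3 cell types came from the same gilts, so that these counts are not independent of each other. The study took a false discovery rate below 0.01 in LE and used the p value corresponding to it, 0.0021, for GE and S. In the fits made here these thresholds were kept and not matched anew, so that the numbers of DE members are not comparable across cell types. In each cell type fewer genes passed here than the paper reported. In LE, 11 members were differentially expressed (DE) at a false discovery rate (FDR) below 0.01, all of them higher in pregnant gilts, where 10.0% of all genes were DE (6.33% higher). They were SEC63, PDIA3, SPCS1, DNAJC3, SSR3, ATF4, SEC23B, SEC61B, SRP9, KDELR3 and HSP90B1. In GE, PDIA3, PDIA6 and SEC61A1 (3 members) passed an unadjusted p value of 0.0021, all higher, where 0.694% of genes did (0.574% higher), and in S 1 member, KDELR2, passed it, where 1.47% of genes did (0.425% higher). None of these GE and S calls had an FDR below 0.05. An unadjusted p below 0.05 was reached by 34 members in LE (all genes, 35.6%), 20 in GE (8.09%) and 25 in S (12.5%). All pregnant libraries were above all control libraries for 28 members in LE (all genes, 14.1%), 10 in GE (2.81%) and 25 in S (7.26%), and all were below for 2 in LE (12.6%) and 1 in S (10.1%). Without gilt 05 the median was 0.46 in LE, 0.35 in GE and 0.40 in S.

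**Figure D2:**
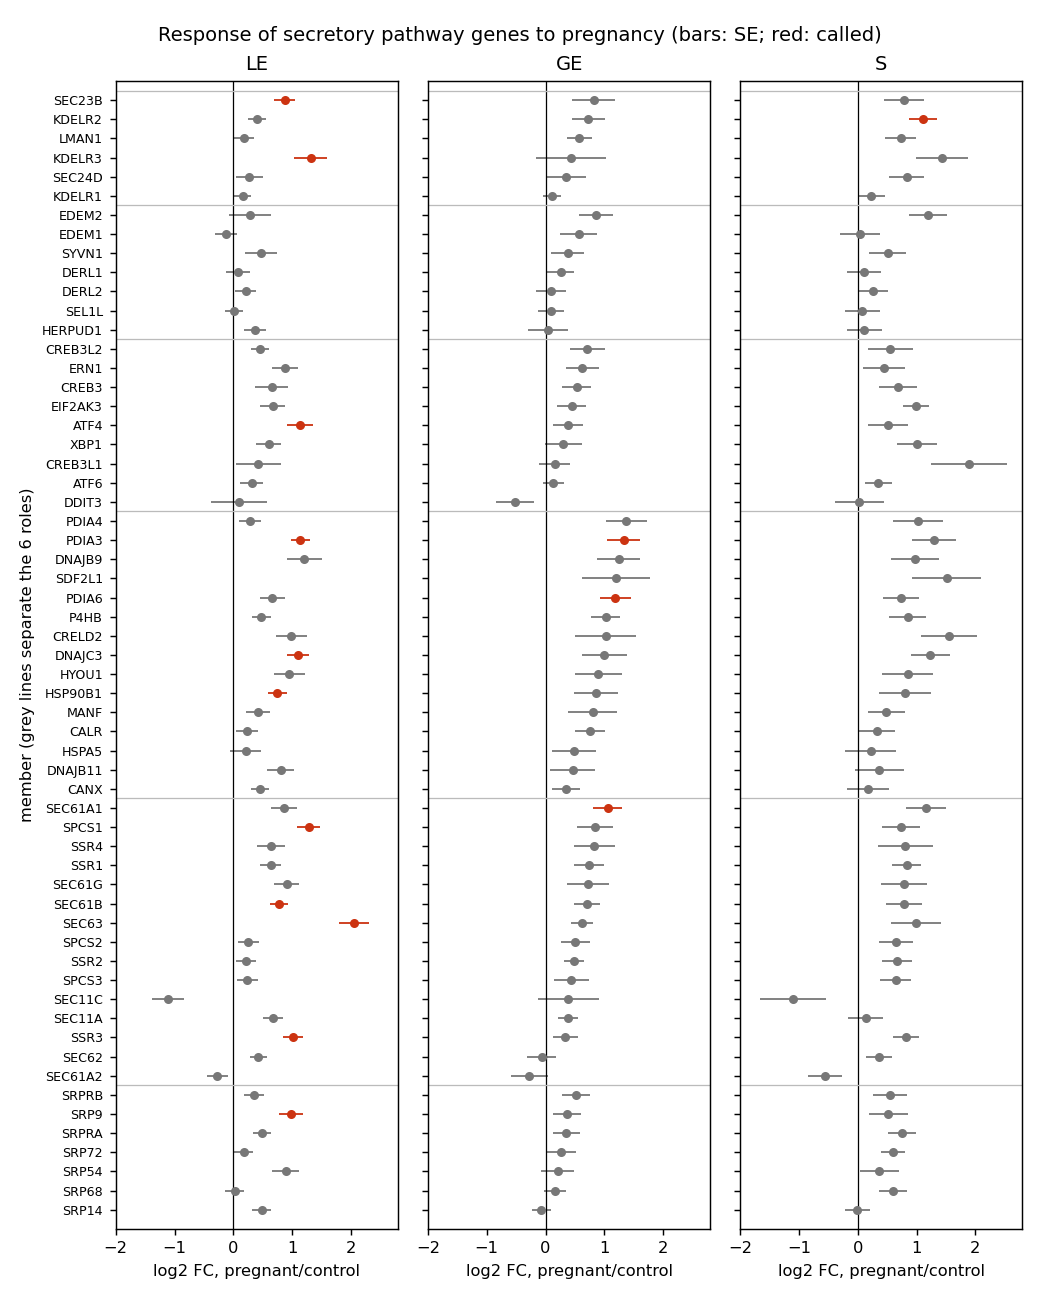
Log2 fold change of pregnant against control gilts (x axis) for each member (y axis, by role) in LE, GE and S, with the SE as bar and DE members in red. Most points lie to the right of 0 in all 3 panels, with SEC11C in LE and S and SEC61A2 in all 3 among the few to the left.

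GE was then compared with LE and with S in a joint model of all 22 libraries with the gilt as block. Of the 58 members, 14 differed between GE and LE (FDR below 0.05), 9 of them higher in GE and 5 lower. This is 24.1% of the members, whereas 35.2% of all genes differed (16.9% higher and 18.3% lower in GE). The median log2 difference of the members was 0.07. The members higher in GE were CREB3L1, XBP1, CRELD2, EDEM2, LMAN1, DNAJC3, SEC62, SRPRA and EIF2AK3, and those lower in GE were ATF4, SEC11C, SSR4, SEC63 and SEC11A. Without gilt 04 or without gilt 13 the number was 8, and without the block it was also 8. The shares of all genes in these fits, and in the Wald tests named below, are not given here. These counts show how the number depends on the fit and are no result about the members. Between GE and S, averaged over both states, no member differed (0.0% of all 10643 genes did), with 3 members at an unadjusted p below 0.05 (13.2% of all genes) and 1 member DE in the Wald test of DESeq2. SDF2L1, fitted in the GE and S tables alone, had a log2 difference of 0.42 ± 0.33 (SE, FDR 0.682). In control gilts alone, 1 of the stress sensors and transcription factors was higher in GE than in S (FDR below 0.05), where 1.37% of all genes differed. In pregnant gilts alone no member differed (0.0% of all genes did). Whether the response to pregnancy differed between cell types was tested as an interaction. For GE and LE, SEC63 alone passed (FDR below 0.05), where 2.93% of all genes did. For GE and S no member and no gene passed (0.0%), with 3 members at an unadjusted p below 0.05 (9.9% of all genes) and 1 member DE in the Wald test.

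**Figure D3:**
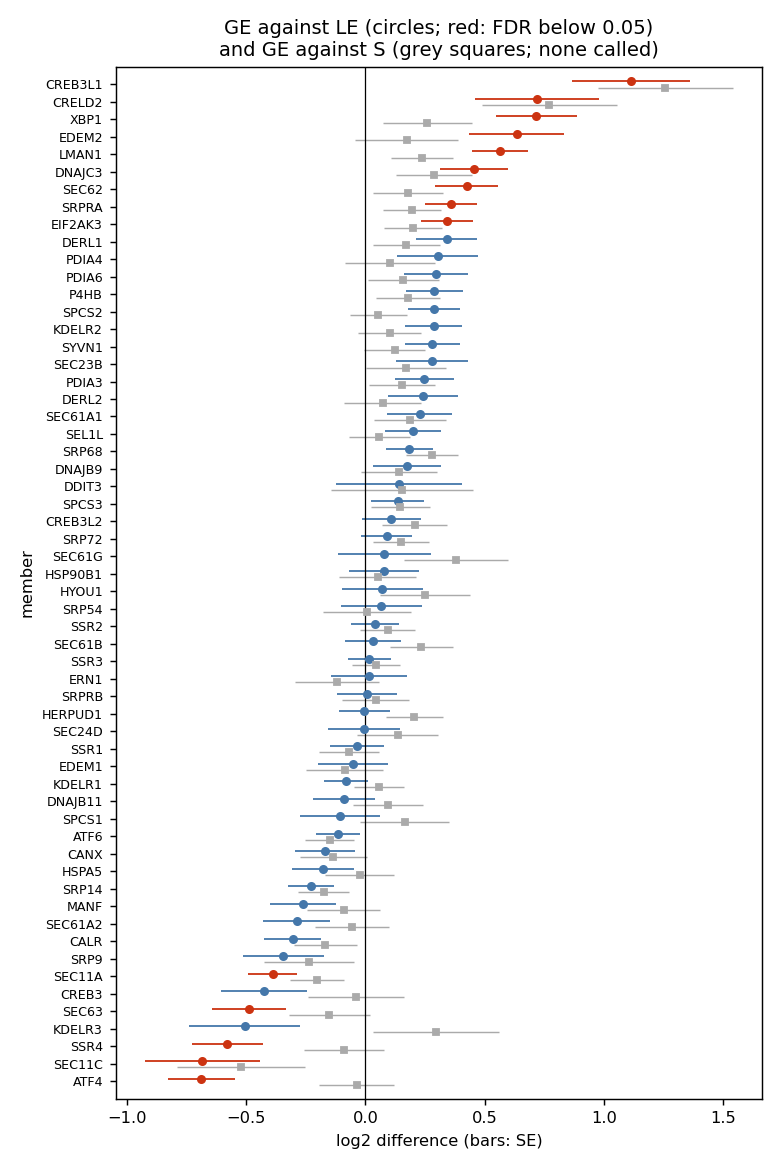
Log2 difference (x axis) of GE against LE (circles, red where the FDR was below 0.05) and of GE against S (grey squares) for the 58 members (y axis), with the SE as bar. CREB3L1 is at the top, ATF4 and SEC11C are at the bottom, and the squares lie closer to 0 than the red circles for most of the DE members.

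In the following, values by library are given in the order of gilts 02, 04, 06 and 13 for control and 01, 03, 05 and 14 for pregnant groups, without gilts 06 and 03 in S. Targeting to the membrane is the task of the SRP and its receptor. Their 7 listed members (SRP9, SRP14, SRP54, SRP68, SRP72, SRPRA and SRPRB) had median log2 fold changes of 0.48 in LE, 0.26 in GE and 0.54 in S. SRP9, a subunit of the domain that pauses translation, was found at 28.2, 39.7, 38.1 and 30.7 CPM in control LE and at 78.3, 67.96, 75.6 and 49.7 CPM in pregnant LE. The groups did not overlap, and the log2 fold change was 0.97 ± 0.20 (SE, FDR 0.0073). In GE the ranges, 30.4 to 41.1 CPM and 33.4 to 60.2 CPM, overlapped (log2 fold change 0.36 ± 0.23 (SE)). SRPRA, the receptor subunit that binds SRP, was higher in GE than in LE by 0.36 ± 0.11 (SE, FDR 0.0215) on the log2 scale, in 7 of 8 gilts. Its values were 199, 175, 195 and 186 CPM in control LE and 257, 234, 226 and 305 CPM in control GE, without overlap. In pregnant gilts they were 317, 225, 265 and 251 CPM in LE and 297, 231, 411 and 367 CPM in GE, with overlap. The DE call of SRPRA between GE and LE was lost without gilt 05 or 13. SRP14 shares 65.3% of its 50-base exon windows with the overlapping gene EIF2AK4, and SRP54 15.3% with LOC100153150, so that their counts are uncertain.

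The 15 members of the translocon and signal peptidase included SEC63, with the largest log2 fold change of the members in LE, and SEC11C, with the most negative one in LE and S. These 15 members had median log2 fold changes of 0.64 in LE, 0.51 in GE and 0.74 in S, and 13 of 15 were positive in each cell type. SEC63, a membrane protein that works with the chaperone HSPA5 in pulling chains through the channel, was found at 251, 184, 215 and 189.5 CPM in control LE and at 709, 1153, 1078 and 543 CPM in pregnant LE. All pregnant LE libraries were far above all control LE libraries, and the log2 fold change was 2.05 ± 0.26 (SE, FDR 0.000539), a 4.13-fold difference. In control GE SEC63 was at 210.0, 258, 228 and 269 CPM and in pregnant GE at 319, 336, 455 and 369.5 CPM, also without overlap but with a smaller log2 fold change of 0.62 ± 0.18 (SE, FDR 0.425). In S the ranges were 229 to 269 CPM in control and 255 to 801 CPM in pregnant gilts. The difference between the GE and LE responses of SEC63 was −1.39 ± 0.31 (SE, FDR 0.0302) on the log2 scale. Its size lay between −1.57 and −1.14 when each gilt was left out in turn, but it no longer passed without gilt 01, 03, 04, 05 or 13. The lower level of SEC63 in GE than in LE (−0.49 ± 0.15 (SE, FDR 0.025)) was a matter of the pregnant gilts, where the log2 difference was −1.18 ± 0.22 (SE), compared with 0.20 ± 0.22 (SE) in control gilts.

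SPCS1, a subunit of signal peptidase, was found at 68.8, 66.4, 45.9 and 62.8 CPM in control LE and at 129, 193, 149 and 122 CPM in pregnant LE (log2 fold change 1.28 ± 0.20 (SE, FDR 0.00174)). SSR3, a subunit of the translocon-associated protein complex, was at 133, 123, 141 and 136 CPM in control LE and at 325, 202, 290.4 and 259.7 CPM in pregnant LE (log2 fold change 1.01 ± 0.17 (SE, FDR 0.00276)). SEC61B, a small subunit of the channel, was at 54.2, 60.4, 50.5 and 65.6 CPM and 97.6, 108, 93.5 and 96.6 CPM in these groups (log2 fold change 0.77 ± 0.15 (SE, FDR 0.00578)). For all 3 genes every pregnant LE library exceeded every control LE library. SEC61A1, the pore-forming subunit, passed the threshold in GE, with 220.2, 242, 185 and 272 CPM in control GE and 572, 318, 574 and 441 CPM in pregnant GE and no overlap. Its log2 fold change was 1.06 ± 0.24 (SE, FDR 0.291) in GE, 0.86 ± 0.23 (SE, FDR 0.0219) in LE and 1.16 ± 0.34 (SE) in S. The GE call of SEC61A1 was kept only without gilt 03 among the fits that left out 1 gilt.

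SEC62, SSR4 and SEC11A differed between GE and LE. SEC62, which assists the channel with short chains, was higher in GE by 0.42 ± 0.13 (SE, FDR 0.0235) on the log2 scale, in 6 of 8 gilts, and the call was lost without gilt 04, 05 or 13. Its values were 75.96, 68.3, 82.9 and 75.9 CPM in control LE and 94.9, 156, 96.99 and 145 CPM in control GE, and 108, 96.6, 106 and 98.2 CPM in pregnant LE and 96.3, 129.7, 153 and 89.3 CPM in pregnant GE. The control groups did not overlap, and the pregnant groups did. SSR4, another subunit of the translocon-associated complex, was lower in GE than in LE in 8 of 8 gilts, by −0.58 ± 0.15 (SE, FDR 0.0083). It was found at 29.3, 25.6, 38.1 and 26.00 CPM in control LE and 25.95, 18.9, 17.9 and 14.8 CPM in control GE, and at 66.2, 46.2, 33.9 and 42.8 CPM in pregnant LE and 52.7, 42.5, 20.6 and 22.7 CPM in pregnant GE. Both pairs of groups overlapped, so that the difference is seen within gilts rather than between ranges. SEC11A, a catalytic subunit of signal peptidase, was lower in GE in 7 of 8 gilts, by −0.39 ± 0.10 (SE, FDR 0.0093). It was measured at 70.3, 71.8, 75.2 and 68.4 CPM in control LE and 51.9, 58.1, 63.1 and 68.4 CPM in control GE, and at 95.2, 137, 127 and 98.2 CPM in pregnant LE and 63.8, 87.5, 88.9 and 74.4 CPM in pregnant GE, without overlap in the pregnant gilts.

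SEC61A2 and SEC11C, the paralogs of SEC61A1 and SEC11A, were described further after their values had been seen. SEC11C was found at 153, 152, 209 and 203 CPM in control LE and at 45.8, 71.1, 90.4 and 122 CPM in pregnant LE, without overlap. Its log2 fold change was −1.11 ± 0.27 (SE, FDR 0.0166) in LE, above the FDR threshold of 0.01, −1.10 ± 0.57 (SE) in S and 0.39 ± 0.52 (SE) in GE. Control GE had 44.2, 53.7, 159 and 40.2 CPM, below all control LE libraries in 3 of 4 gilts, and pregnant GE had 58.3, 68.8, 179 and 81.1 CPM. SEC11C was lower in GE than in LE by −0.68 ± 0.24 (SE, FDR 0.0396), a call that held without gilt 05 or 06 but not without any of the other gilts, nor without the block. Without gilt 05 its log2 fold change in GE was −0.12. The interaction with pregnancy was 1.59 ± 0.48 (SE, FDR 0.093) on the log2 scale and did not pass. SEC61A2 had log2 fold changes of −0.27 ± 0.18 (SE) in LE, −0.28 ± 0.31 (SE) in GE and −0.55 ± 0.29 (SE) in S and was the only member with a negative value in all 3 cell types. Levels were scaled to the joint length of all annotated exons, 9851 bases for SEC61A1 and 3364 for SEC61A2, and the size of the share depends on these lengths. Unscaled, the means in control LE were 209 CPM for SEC61A1 and 34.6 CPM for SEC61A2. After scaling, SEC61A2 made up 30.3% to 34.2% of the sum of SEC61A1 and SEC61A2 in control LE and 13.6% to 23.8% in pregnant LE. The share was 19.8% to 32.4% in control GE and 10.1% to 17.6% in pregnant GE, and 28.8% to 34.4% in control S and 9.78% to 19.4% in pregnant S, without overlap in any cell type. The share of SEC11C in the sum of SEC11A and SEC11C was 68.3% to 75.2% in control LE and 32.9% to 55.8% in pregnant LE. In S it was 60.9% to 76.4% in control and 33.8% to 58.3% in pregnant gilts, and in GE, 37.5% to 72.0% and 44.5% to 67.2%, the ranges overlapped. These shares were not tested.

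**Figure D4:**
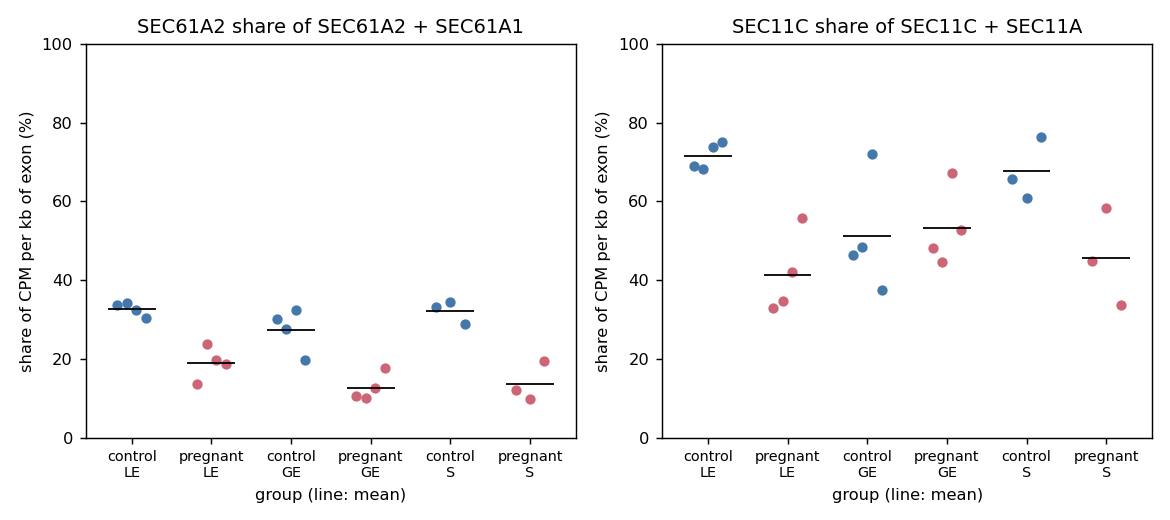
Share of SEC61A2 in SEC61A1 plus SEC61A2 (left) and of SEC11C in SEC11A plus SEC11C (right), in percent of CPM per kb of exon (y axis), in each library by group (x axis, blue control, red pregnant, line for the mean). The SEC61A2 share is lower in every pregnant library than in every control library of the same cell type, and the SEC11C share is so in LE and S.

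Chaperones and disulfide isomerases had median log2 fold changes of 0.70 in LE (14 members), 0.997 in GE (15) and 0.85 in S (15), and none had a negative value. Without gilt 05 the median in S was 0.39. PDIA3, an isomerase that acts on glycoproteins, was also the most abundant member per kb of exon in GE. Its levels were 484, 355, 416 and 444 CPM in control LE and 894, 896, 952 and 1010.3 CPM in pregnant LE, and 538, 450.1, 392 and 555 CPM in control GE and 958, 1034, 1819 and 1040.2 CPM in pregnant GE. In S it was at 564, 378 and 442 CPM in control and 724, 1578 and 1044 CPM in pregnant gilts. The groups did not overlap in any cell type, and pregnant gilt 05 was highest in GE and S. The log2 fold change was 1.14 ± 0.16 (SE, FDR 0.000995) in LE, 1.32 ± 0.27 (SE, FDR 0.216) in GE and 1.30 ± 0.37 (SE, FDR 0.236) in S, where it did not pass. The GE call was lost without gilt 04 or 06. PDIA6, another isomerase, was at 78.3, 86.9, 80.2 and 109 CPM in control GE and 159, 169, 314 and 165 CPM in pregnant GE, without overlap (log2 fold change 1.19 ± 0.26 (SE, FDR 0.28)), and this call was lost without gilt 02, 03, 04 or 06. In LE its log2 fold change was 0.66 ± 0.21 (SE, FDR 0.0421).

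DNAJC3, a co-chaperone of HSPA5, was found at 44.00, 44.1, 42.3 and 53.9 CPM in control LE and 100, 73.3, 114 and 108 CPM in pregnant LE, without overlap (log2 fold change 1.09 ± 0.18 (SE, FDR 0.00248)). In GE it was at 70.1, 54.6, 57.2 and 93.3 CPM in control and 90.7, 94.4, 260.3 and 105 CPM in pregnant gilts, with gilt 05 far above the others. DNAJC3 was higher in GE than in LE by 0.45 ± 0.14 (SE, FDR 0.0234), in 6 of 8 gilts, a call lost without gilt 02, 05 or 13. HSP90B1, the ER member of the HSP90 family, was at 765, 667, 739.5 and 738 CPM in control LE and 1272, 1003, 1377 and 1254 CPM in pregnant LE (log2 fold change 0.75 ± 0.16 (SE, FDR 0.00934)). CRELD2, a stress-induced isomerase-like protein, was lower in level but higher in GE than in LE by 0.72 ± 0.26 (SE, FDR 0.0444) and than in S by 0.77 ± 0.28 (SE, FDR 0.254), where it did not pass, with the same direction in 6 of 8 and 6 of 6 gilts. HSPA5, the main chaperone of the ER lumen and a sensor of unfolded protein, did not pass in any cell type. It was found at 868, 669, 791 and 784 CPM in control LE and 1164, 446, 1073 and 925 CPM in pregnant LE, and at 741, 546, 647 and 656 CPM in control GE and 823, 385, 1533 and 880.1 CPM in pregnant GE. In GE, gilt 03 was below all control gilts and the other pregnant gilts were above all of them, and the log2 fold changes were 0.20 ± 0.27 (SE), 0.49 ± 0.38 (SE) and 0.22 ± 0.43 (SE) in LE, GE and S. In S the value was −0.03 without gilt 04 and −0.19 without gilt 05. The 7 listed members with an ER stress response element in the promoter had median log2 fold changes of 0.60 in LE, 0.75 in GE and 0.74 in S, all 7 positive in each. The other members had 0.47, 0.47 and 0.66, with 48 of 51, 48 of 52 and 49 of 52 positive. In LE 10 of these 51 were DE and 1 of the 7 with the element, where 10.0% of all genes were.

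**Figure D5:**
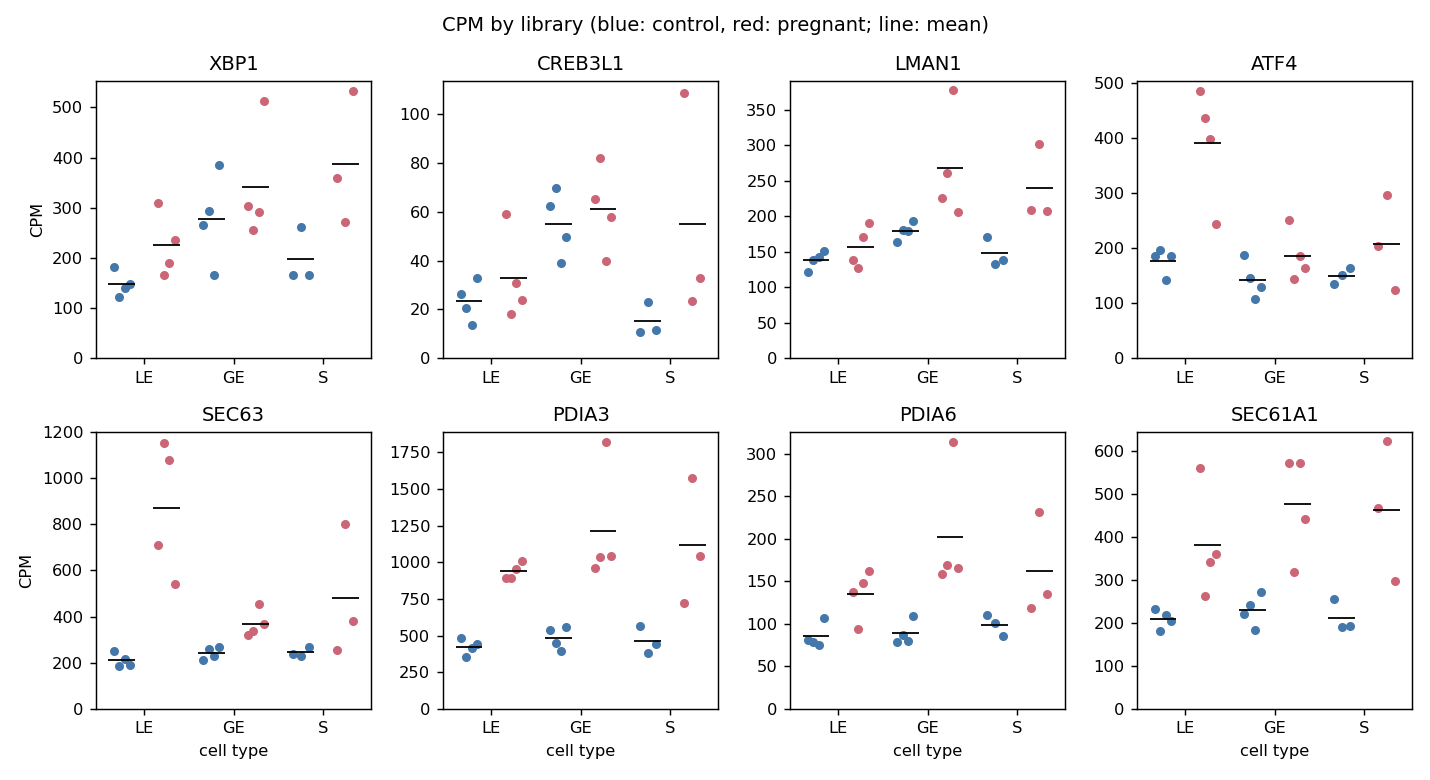
CPM (y axis) of 8 members in each library by cell type (x axis), with control in blue, pregnant in red and the mean as a line. SEC63 and ATF4 are raised in pregnant LE, PDIA3 in pregnant gilts of all 3 cell types, and CREB3L1, XBP1 and LMAN1 are higher in GE than in LE.

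The stress sensors and transcription factors had median log2 fold changes of 0.60 in LE, 0.38 in GE and 0.56 in S (9 members). ATF4, the factor translated when EIF2AK3 or related kinases slow protein synthesis, was found at 186, 196, 142 and 186 CPM in control LE and 485, 437, 399 and 244 CPM in pregnant LE. The groups did not overlap, and the log2 fold change was 1.13 ± 0.22 (SE, FDR 0.00547). In control GE it was at 189, 147, 107 and 129 CPM and in pregnant GE at 252, 143, 185 and 164 CPM, with overlap (log2 fold change 0.38 ± 0.25 (SE)). ATF4 had the smallest p value of all members between GE and LE, with a log2 difference of −0.69 ± 0.14 (SE, FDR 0.00221), lower in GE in 7 of 8 gilts. XBP1, the factor activated by ERN1, was higher in GE than in LE by 0.72 ± 0.17 (SE, FDR 0.00504), in 7 of 8 gilts. The libraries showed 181, 121, 139 and 149 CPM in control LE and 265, 294, 166 and 385 CPM in control GE, and 309.6, 166, 190.1 and 235 CPM in pregnant LE and 304, 256, 291 and 513 CPM in pregnant GE, with overlap in both states. Its log2 difference from S was 0.26 ± 0.19 (SE, FDR 0.602). Control GE of gilt 13, the highest of its group for XBP1, also had the highest plasma cell marker sum of the GE libraries (133.3 CPM). Pregnant GE of gilt 14, the highest of all GE libraries for XBP1, had the lowest such sum in GE (16.65 CPM). The part of plasma cells in these values was not tested.

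CREB3L1, a membrane-bound factor known to drive secretory genes in cells that make collagen, showed the largest difference between GE and LE, 1.11 ± 0.25 (SE, FDR 0.00367), with 8 of 8 gilts higher in GE. Its levels were 26.3, 20.4, 13.8 and 33.03 CPM in control LE and 62.4, 69.6, 38.97 and 49.5 CPM in control GE, without overlap, and 59.02, 18.1, 30.9 and 23.8 CPM in pregnant LE and 65.3, 81.9, 39.8 and 57.8 CPM in pregnant GE, with overlap. In S it was at 10.9, 23.03 and 11.4 CPM in control and 109, 23.4 and 32.8 CPM in pregnant gilts. The highest S value belonged to gilt 01, the S library with the highest fibroblast marker sum (58100 CPM), and the part of fibroblasts in this value was not tested. CREB3L1 also had the smallest p value of the members between GE and S averaged over both states, 1.26 ± 0.28 (SE, FDR 0.147), which did not pass. In control gilts alone its log2 difference was 2.05, the largest of the stress sensors and transcription factors, of which 1 passed there (FDR below 0.05). In pregnant gilts alone it was 0.46. Its GE and S ranges did not overlap in control gilts and did so in pregnant gilts. EIF2AK3 was higher in GE than in LE by 0.34 ± 0.11 (SE, FDR 0.0246), in 7 of 8 gilts, a call lost without gilt 02, 04 or 14. It was measured at 40.6, 38.4, 40.2 and 45.2 CPM in control LE and 60.01, 59.6, 51.5 and 54.2 CPM in control GE, without overlap, and at 51.8, 48.8, 87.02 and 72.2 CPM in pregnant LE and 47.6, 66.6, 95.1 and 97.1 CPM in pregnant GE, with overlap. DDIT3, a factor of the later, death-promoting stage of the stress response, was low in all groups, at 10.5 to 16.4 CPM in control GE and 5.57 to 14.1 CPM in pregnant GE, with log2 fold changes of 0.10 ± 0.47 (SE) in LE, −0.52 ± 0.33 (SE) in GE and 0.03 ± 0.42 (SE) in S. Without gilt 05 the value in LE was −0.53, and without gilt 04 that in S was −0.19.

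The members of ER-associated degradation had median log2 fold changes of 0.21 in LE, 0.25 in GE and 0.11 in S (7 members), and no member of it passed in any cell type. Without gilt 05 the median in S was −0.18. EDEM2, which trims mannose from misfolded glycoproteins, was higher in GE than in LE by 0.63 ± 0.20 (SE, FDR 0.0237), in 6 of 8 gilts, a call lost without gilt 04 or 13. It was found at 28.2, 17.1, 21.5 and 18.04 CPM in control LE and 23.9, 30.3, 18.8 and 35.3 CPM in control GE, with overlap. In pregnant gilts it was at 50.6, 16.5, 17.6 and 23.8 CPM in LE and 64.8, 32.8, 57.1 and 41.5 CPM in GE, where gilt 01 was highest in both.

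Export from the ER and retrieval to it had median log2 fold changes of 0.33 in LE, 0.50 in GE and 0.81 in S (6 members, none negative). LMAN1, a cargo receptor for glycoproteins, was higher in GE than in LE in 8 of 8 gilts, by 0.56 ± 0.12 (SE, FDR 0.0025). The libraries showed 121, 138, 143 and 151 CPM in control LE and 164, 181, 179.8 and 194 CPM in control GE, and 139, 127, 171 and 191 CPM in pregnant LE and 226, 261, 378 and 206 CPM in pregnant GE. The LE and GE ranges did not overlap in either state. Its log2 difference between GE and S was 0.24 ± 0.13 (SE, FDR 0.48). SEC23B, a subunit of the coat of export vesicles, was at 83.5, 78.6, 90.3 and 81.05 CPM in control LE and 145, 120.0, 189 and 156 CPM in pregnant LE (log2 fold change 0.87 ± 0.17 (SE, FDR 0.0057)). KDELR3, a receptor that returns escaped ER proteins, was at 31.2, 29.9, 21.5 and 29.7 CPM in control LE and 114, 61.6, 68.2 and 43.4 CPM in pregnant LE (log2 fold change 1.32 ± 0.28 (SE, FDR 0.00835)). Neither gene overlapped between the LE groups. In control GE, KDELR3 was at 67.3, 19.4, 18.8 and 13.1 CPM, where the high value of gilt 02 came from the control GE library with the highest fibroblast marker sum, and the part of fibroblasts in it was not tested. KDELR2, of the same receptor family, was the member that passed in S, at 130.2, 113 and 123 CPM in control and 300.4, 232 and 237 CPM in pregnant gilts, without overlap (log2 fold change 1.11 ± 0.24 (SE, FDR 0.139)). This call was lost when any of the 6 gilts with an S library was left out.

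The calls in LE also depended on single gilts. Among the fits that left out 1 gilt, SEC63, PDIA3 and SPCS1 passed in all of them, DNAJC3 in all but those without gilt 02, 04 or 06, SSR3 in all but those without gilt 02, 04, 05, 06 or 13, and ATF4 only in that without gilt 14. SEC23B passed only without gilt 01, 03 or 14, SEC61B and KDELR3 only without gilt 01 or 14, SRP9 only without gilt 14, and HSP90B1 only without gilt 03. In the comparison of GE with LE, ATF4, LMAN1, CREB3L1, XBP1, SSR4 and SEC11A passed in each of these fits, and SEC63 in those without gilt 01, 05, 13 or 14. CRELD2 passed only without gilt 03 or 06.

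A second list held 124 other genes of the pathway, of which 121 were listed. Positive log2 fold changes in pregnant gilts were found for 91 of 120 in LE (median 0.28), 97 of 120 in GE (median 0.26) and 86 of 119 in S (median 0.36). In LE 6 of them (5.0%; all genes, 10.0%) were DE, 5 higher and 1 lower, in GE 1 (0.833%; all genes, 0.694%) passed, and in S none did, with 19 at an unadjusted p below 0.05 (12.5% of all genes). All 12 subunits of the oligosaccharyltransferase, which attaches glycans to entering chains, had positive values in GE (median 0.65), and none of them passed there. Of all genes, 47.7% were positive in GE. In LE 9 of the 12 were positive (all genes, 50.5%) and 1 was DE (8.33%). In S 11 of the 12 were positive (all genes, 56.5%). The other stress-response genes had 9 of 15 positive in GE. Between GE and LE, 39 of 119 genes of the second list (32.8%) differed, near the 35.2% of all genes. Of these, 21 were higher and 18 lower in GE.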

How the data were processed

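Single-read libraries (Ovation SoLo) had been prepared from LCM samples of 8 gilts. According to the paper, the authors mapped the reads to Sscrofa11.1, removed PCR duplicates by random adapter bases and filtered genes by CPM. The deposited tables, 1 per cell type, hold raw read counts per NCBI gene. The counting tool and its use of strand are not given in the sources used here, so that genes with overlapping exons are uncertain. Gene IDs (12401 of 12401) were matched to NCBI annotation release 106 of Sscrofa11.1.

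Each cell type was fitted alone in edgeR 4.0.16 under R 4.3.3 (TMM, quasi-likelihood F test, Benjamini-Hochberg FDR) for pregnant against control (LE, FDR below 0.01; GE and S, p below 0.0021, the thresholds of the study). GE was compared with LE and S in a joint fit of 22 libraries and 10643 genes with the gilt as block (FDR below 0.05). The labels give the gilt of each library, and deviations from group means correlated within gilts with medians of 0.257 (LE and GE), 0.314 (LE and S) and 0.468 (GE and S). The SE was taken from the log2 fold change and the F statistic. CPM were computed on the library totals and TMM factors of the joint fit. Depth was 893912 to 4020796 counts per library, and differences near the floor of 3 counts are imprecise. Floors cover counting error only.

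The members and lists were chosen with earlier results of these data known. Values in every library are given for the DE members between GE and LE (12 with the smallest p) and for those DE in pregnancy or in an interaction (at most 10 each). HSP90B1, the 11th in LE, and HSPA5, SEC11C, SEC61A2, CRELD2 and DDIT3 were added after their values were seen. Of the other pathway genes, at most 3 DE genes per direction and comparison are named. The fits were tested on simulated counts. Alternatives were DESeq2 1.42.0 size factors and Wald test, library size alone, at least 10 counts in every library, no block, a random block (limma 3.58.1), fewer tables or gilts, other thresholds and leaving out each gilt. Protein sequences were not used here.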

Additional observations from a re-analysis of the deposited data

Results flagged for a closer look

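In groups of 4 libraries, 88 were examined over 22 members, and in 6 of them the highest or lowest library lay apart from the others by more than Dixon's 95% critical value for the gap relative to the range. Chance gives about 1 in 20 such groups. Pregnant GE of gilt 05 was far above the other pregnant GE libraries for PDIA3 (1819 CPM), PDIA6 (314.2 CPM) and DNAJC3 (260.3 CPM). DNAJC3 was also apart in control LE of gilt 13 (53.9 CPM). KDELR3 was apart in control LE of gilt 06 (21.5 CPM), below the others, and in control GE of gilt 02 (67.3 CPM), above them. The log2 response of SEC63 to pregnancy differed between GE and LE by −1.39 in the interaction test (FDR 0.0302), smaller in GE.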

How the results depend on the processing

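The DE members, the named other genes of the pathway and the medians over all members kept their direction in each alternative run. Of the values that had not passed in the report, those of DDIT3 in LE and S turned negative with library size alone (−0.051 and −0.062). When a gilt was left out, those of DDIT3 lay between −0.53 and 0.35 in LE and between −0.19 and 0.37 in S, of SEC11C in GE between −0.12 and 1.09 and of HSPA5 in S between −0.19 and 0.48, and the median of ER-associated degradation in S between −0.18 and 0.31. Positive values in pregnant gilts were found for 51 to 55 members in LE, 51 to 56 in GE and 48 to 56 in S across the alternatives. The paralog shares and the count over all 3 cell types were not recomputed. Of the 14 members that differed between GE and LE, 8 were found without the gilt as block (SSR4, SEC63, DNAJC3, EIF2AK3, EDEM2 and SEC11C did not pass), 6 at an FDR below 0.01 and 8 to 18 when each gilt was left out. ATF4, CREB3L1, LMAN1, SEC11A and XBP1 passed in all 17 alternatives to this comparison. Between GE and S, 1 member was DE in the Wald test of DESeq2 in place of 0, as in the interaction of GE and S (1 in place of 0). The interaction of GE and LE, with 1 member, gave 3 in the Wald test, 0 without the block, 0 with only the LE and GE tables, 0 with the 6 gilts that have an S library, 0 at an FDR below 0.01 and 0 to 3 when each gilt was left out (3 without gilt 06 or 14). For pregnant against control in LE, the 11 members became 6 with library size alone, 22 in the Wald test, 5 with the gilt as a random block, 4 with the 6 gilts, 25 at an FDR below 0.05 and 3 to 11 when a gilt was left out. It was 3 without gilt 02, 04 or 06, 4 without gilt 05 and 5 without gilt 13. In GE, the 3 members became 7 in the Wald test, 7 with the random block, 1 with the 6 gilts, 0 at an FDR below 0.05 and 0 to 4 when a gilt was left out (0 without gilt 04 or 06, 1 without gilt 02). In S, the 1 member became 0 with library size alone, 8 in the Wald test, 5 with the random block, 0 at an FDR below 0.05 and 0 to 2 when a gilt was left out (2 without gilt 14). The median log2 fold change of the members in LE was 0.33 with library size alone, a scaling that moved the median of all genes to −0.14, and 0.43 to 0.54 when a gilt was left out. In GE it was 0.35 to 0.61 and in S 0.40 to 0.78 when a gilt was left out, with the lowest value of both without gilt 05. The counts of DE members in the alternatives, here and above, are given without the share of all genes that passed in the same run. They show how the number depends on the method and are no result about the members. The causes were not tested. Where a gilt was left out of S, a group of 2 libraries remained, and at the lowest depth, in pregnant LE of gilt 01, 3 counts correspond to 3.61 CPM.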

Other observations

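Among the other genes of the pathway, at most 3 DE genes per direction and comparison are given, those with the smallest p. Levels, where printed, are the mean CPM ± SD of the groups (n = 4 in LE and GE). SESN2, a stress-induced regulator of nutrient signaling, was lower in pregnant than in control LE (27.2 ± 8.68 and 73.5 ± 15.3, log2 fold change −1.40, FDR 0.00376) and lower in GE than in LE in 8 of 8 gilts (log2 difference −1.49, FDR 0.000725). PPP1R15B, which guides the dephosphorylation of EIF2S1, was also lower in GE in 8 of 8 gilts (log2 difference −0.65, FDR 0.000813), as was TRAM2 (log2 difference −0.84, FDR 0.00171). TRAM1, a partner of the channel, and DNAJC10, an ER reductase, were higher in GE in 8 of 8 gilts (log2 differences 0.59, FDR 0.00107, and 0.69, FDR 0.00126), and MIA2, which takes part in the export of large cargo, in 7 of 8 gilts (log2 difference 0.78, FDR 0.00154).

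In pregnant LE, 2 of 33 coat protein and cargo receptor genes (6.06%) and 1 of 14 translocon partners (7.14%) were DE, where 10.0% of all genes were. USO1, a tether of vesicles at the Golgi, was at 163 ± 14.6 CPM in control LE and 379 ± 94.4 CPM in pregnant LE (log2 fold change 1.21, FDR 0.0019). EMC2, a subunit of the ER membrane protein complex, was at 86.6 ± 9.28 and 155.9 ± 15.9 CPM (log2 fold change 0.84, FDR 0.00382). SAR1B, the GTPase that starts coat assembly, was at 57.9 ± 4.44 and 129.4 ± 36.8 CPM in LE (log2 fold change 1.16, FDR 0.00405) and at 64.7 ± 7.001 and 69.1 ± 9.27 CPM in GE, and its responses differed between GE and LE (−1.02, FDR 0.0349), in 5 of 16 alternatives as well. Among the fits that left out 1 gilt, EMC2 and SAR1B did not pass in LE without gilt 02, 04, 05, 06 or 13, nor SESN2 without gilt 02, 04, 05 or 06. HM13, signal peptide peptidase, passed the p value of the study in GE, at 48.6 ± 10.9 and 112.3 ± 25.8 CPM (log2 fold change 1.21, FDR 0.216), a call lost without gilt 01, 03, 04, 05 or 06.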
